A study of Mus musculus with 5 samples.

Results

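The genes described here build and run the mitotic spindle: motor kinesins, the kinetochore, the spindle checkpoint, the chromosomal passenger complex, condensin and the machinery of anaphase and cytokinesis. The set holds 59 genes, listed by the roles of their proteins and found by exact gene symbol, of 35976 genes in the count tables. Earlier results of these data were known when they were listed. All 59 had a row in all 5 libraries. RNA had been sequenced in bulk from mature CD8 single-positive (SP) thymocytes sorted by flow cytometry, the CD8 lineage T cells in the last stage before they leave the thymus. The groups were Runx3 +/+ (2 libraries) and Runx3 +/WRPW (3 libraries), the latter carrying 1 wild-type copy of Runx3, a Runt-domain transcription factor of the CD8 lineage, and 1 copy of an allele named WRPW. No treatment, strain, age or sex is stated in the labels, nor whether the libraries of a genotype came from separate mice, so the p-values reflect only how far these libraries vary, and that variation may be technical.

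As background, a dividing cell assembles kinetochores on its centromeres, captures them with spindle microtubules, and holds anaphase back through the checkpoint until every chromosome is attached. Condensin compacts the chromosomes, the chromosomal passenger complex corrects faulty attachments, and cytokinesis then parts the daughter cells. Transcripts of most of these genes accumulate from late S phase to mitosis and are kept low in resting cells, which makes them markers of dividing cells. Most mature SP thymocytes are resting cells, while division is frequent among immature thymocytes and in a late wave of mature cells.

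Transcripts of the mitotic genes were lower in Runx3 +/WRPW cells almost throughout. Of the 59 genes, 54 fell, 0 rose and 5 were not called. A call is a Benjamini-Hochberg adjusted p under 0.05 in edgeR's quasi-likelihood test, adjusted over all 13666 genes tested, of which 13.6% were called, 7.33% as lower and 6.24% as higher. The log2 fold change of Runx3 +/WRPW over Runx3 +/+ was below 0 for all 59 (46.8% of genes tested), with a median of -1.86, against 0.02 over all genes tested. Of the 59, 44 fell by at least 2-fold (background 2.69%) and 28 by at least 4-fold (background 1.1%). Those 28 genes are 47.5% of the set and 18.5% of the 151 genes that fell by at least 4-fold in these cells. In all 59, both Runx3 +/+ libraries lay above all 3 Runx3 +/WRPW libraries, a separation in that direction seen at 23.8% of genes tested. In bulk RNA, fewer dividing cells and less RNA per dividing cell cannot be told apart.

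**Figure D1:**
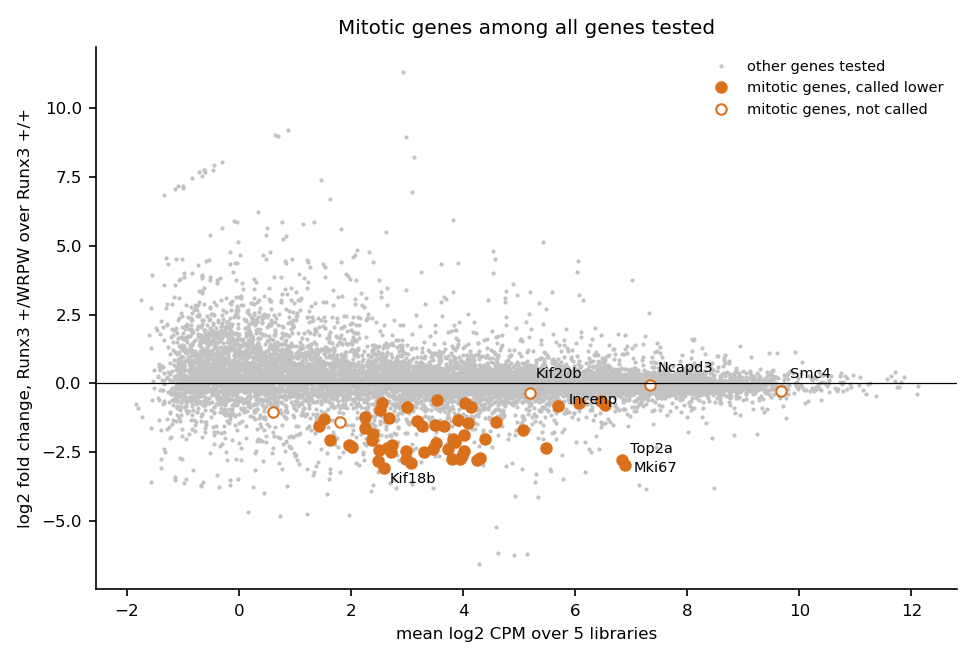
Each point is 1 of the 13666 genes tested, with the mean log2 CPM over the 5 libraries on the x axis and the log2 fold change of Runx3 +/WRPW over Runx3 +/+ on the y axis; the 59 mitotic genes are in orange, filled where called lower. The orange points lie below 0 at every level of expression, and the open ones are the 5 genes that did not pass.

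All 59 genes passed the low-count filter, and all 59 were above its level of 0.458 CPM in every library of both genotypes, so none entered the test through 1 genotype alone. Levels are in CPM, the count scaled to the effective size of its library. Total counts ran from 15715242 to 43758550 per library. Runx3 +/WRPW library 2 stood apart: 27414 genes had a count there, against 17237 to 18967 in the others, and 7350 genes had counts in that library alone, at a median of 0.311 CPM. Among the mitotic genes its level was 1.08 times the mean of Runx3 +/WRPW libraries 1 and 3 at the median, with 10 genes at 1.5 times or more, the highest being Cenpm (3.06 times), Birc5 (2.64 times) and Kif14 (2.56 times). Leaving that library out again gave 54 called lower, with Cenpm gained and Cenph lost, where 6.36% of all genes fell. Leaving out Runx3 +/+ library 1 gave 34 and Runx3 +/+ library 2 gave 27, in fits where 1.86% and 0.941% of all genes fell. Leaving out the first or the third Runx3 +/WRPW library gave 43 each (3.53% and 3.99% of all genes). The log2 fold change was below 0 for all 59 genes in each of these fits, a count that was not made over all genes.

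The markers of CD8 T cells were abundant. Cd8a, which encodes a chain of the CD8 coreceptor, stood at 2617 and 2202 against 2501, 2268 and 2635 CPM (Runx3 +/+ libraries 1 and 2, then Runx3 +/WRPW libraries 1, 2 and 3, the order used from here on), Cd8b1 at 784 and 1279 against 765, 833 and 783 CPM, and Cd4 at 0.467 and 5.36 against 0.16, 0.374 and 0.046 CPM. The list of mature CD8 SP markers summed to 6894 and 6842 against 6262, 5817 and 6443 CPM, with 2 of 8 tested lower and 0 higher. Of the 6 tested of 7 double-positive markers, 1 was lower (Dntt, 12.7 and 11.8 against 5.26, 2.18 and 2.53 CPM), and their summed level was 63.4 and 66.7 CPM against 41.6 to 45.4 CPM. Of 3 double-negative markers, 2 were tested and 1 was lower (Kit, 23 and 17.8 against 8.62, 10.6 and 6.49 CPM), with sums of 26.8 and 21.7 against 10.7 to 15.3 CPM. Markers of CD4 helper and regulatory T cells summed to 6.26 and 16.0 against 1.1 to 2.08 CPM, with 1 of 3 tested lower (Foxp3, 5.09 and 9.63 against 1.19, 0.685 and 0.414 CPM). The recombinase genes Rag1 and Rag2 and the pre-T cell receptor gene Ptcra belong to the double-positive and double-negative lists. They were at no more than 0.644, 0.0799 and 0.0919 CPM in any library, below Dntt and Kit of the same lists. Of 4 natural killer cell markers 1 was tested and rose (Eomes, 9.9 and 12.3 against 91, 149 and 73.9 CPM, log2 fold change 3.23), a factor also made by some CD8 T cells, while Ncr1, Klrb1c and Klre1 were at no more than 0.503 CPM. That list summed to 10.4 and 12.9 against 74.3 to 149.9 CPM. B cell, myeloid, erythroid and thymic epithelial lists summed to at most 12.6 CPM in any library. The part of these other cells in the fall of the mitotic genes was not tested.

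Promoter sequences of the set were searched for cell cycle motifs. Many genes of late cell cycle transcription carry a cell cycle genes homology region (CHR), a short element next to the start site that is bound by MuvB complexes, often downstream of CCAAT boxes bound by the factor NF-Y. In RefSeq (GRCm38.p6), 53 of the 59 genes had a promoter window of 300 bases, from 250 before to 50 after the start site; Kif20a, Spc24, Aurkb, Incenp, Tpx2 and Smc4 had none. Where a gene had several windows, a motif in any of them was counted. A CHR, searched as TTTGAA or TTCGAA on either strand, was present in the windows of 41 of the 53 (77.4%), against 17.0% of 10355 tested genes with a window. The CCAAT box, searched as CCAAT on either strand, was present in 36 (67.9%, against 42.9%), and both motifs in 32 (60.4%, against 8.43%). An E2F-type motif, TTTCCCGC or TTTGGCGC on either strand, was present in 6 (11.3%, against 3.41%). Within 50 bases of the start site on either side, a span chosen after the positions were seen, 35 of the 53 had a CHR (66.0%), against 4.64% of tested genes. The median log2 fold change was -2.07 for the 41 genes with a CHR in the window and -1.40 for the 12 without. The quartiles overlapped, at -2.50 and -1.38 with a CHR and -2.05 and -0.86 without, and the difference was not tested. A match is a description of letters and no evidence of binding.

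**Figure D2:**
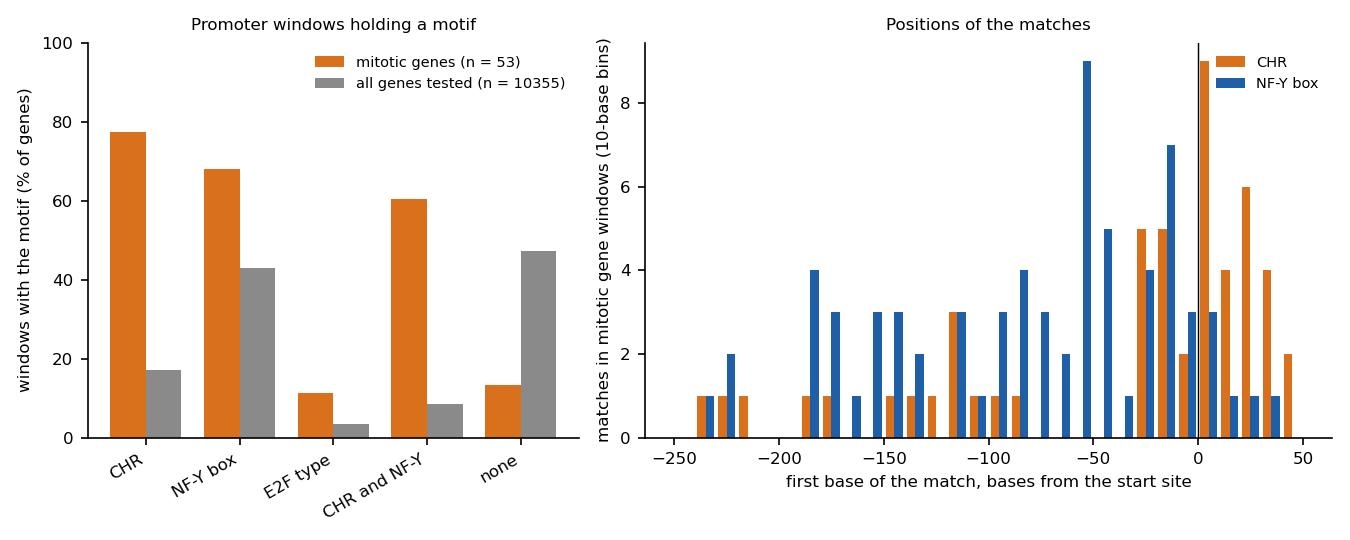
The bars give the percentage of genes whose 300-base promoter window holds each motif, for the 53 mitotic genes with a window (orange) and the 10355 tested genes with one (grey); the histogram gives the first base of each CHR (orange) and NF-Y box (CCAAT, blue) match from the start site in 10-base bins, 1 window a gene. CHR matches gather within 50 bases of the start site and NF-Y box matches mostly lie upstream of it.

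The stretch from 120 bases before to 30 after the start site is shown for the gene of each group with the largest fall among those with a window, and for Top2a, with CHR, CCAAT and E2F-type matches in capitals, 5′ to 3′ along the gene, in the coordinates of GRCm38.p6. Except in Mki67, whose matches lie further upstream, and Nusap1, whose stretch has no match, each holds a CHR near the start site.
Kif18b (chr11:102925095-102925244, minus strand): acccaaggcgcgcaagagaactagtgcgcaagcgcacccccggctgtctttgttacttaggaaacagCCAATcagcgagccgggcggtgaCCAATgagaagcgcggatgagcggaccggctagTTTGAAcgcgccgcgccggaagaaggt
Cenpf (chr1:189688057-189688206, minus strand): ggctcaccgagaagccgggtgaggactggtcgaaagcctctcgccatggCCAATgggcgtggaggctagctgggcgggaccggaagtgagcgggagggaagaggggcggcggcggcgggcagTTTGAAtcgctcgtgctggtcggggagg
Bub1 (chr2:127831830-127831979, minus strand): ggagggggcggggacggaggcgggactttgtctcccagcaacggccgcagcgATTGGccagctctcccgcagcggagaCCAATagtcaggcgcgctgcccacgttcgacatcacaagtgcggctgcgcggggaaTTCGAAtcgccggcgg
Gsg2 (chr11:73138265-73138414, minus strand): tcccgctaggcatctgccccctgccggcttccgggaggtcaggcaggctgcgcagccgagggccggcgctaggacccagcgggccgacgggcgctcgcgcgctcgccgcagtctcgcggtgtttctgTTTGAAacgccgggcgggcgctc
Nusap1 (chr2:119618178-119618327, plus strand): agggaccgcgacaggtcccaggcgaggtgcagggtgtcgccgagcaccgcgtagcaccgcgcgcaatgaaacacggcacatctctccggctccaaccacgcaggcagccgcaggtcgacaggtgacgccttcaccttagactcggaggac
Anln (chr9:22389177-22389326, minus strand): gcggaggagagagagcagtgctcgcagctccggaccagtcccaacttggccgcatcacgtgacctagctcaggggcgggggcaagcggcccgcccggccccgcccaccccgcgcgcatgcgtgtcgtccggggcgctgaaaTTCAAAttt
Ncapg (chr5:45669805-45669954, plus strand): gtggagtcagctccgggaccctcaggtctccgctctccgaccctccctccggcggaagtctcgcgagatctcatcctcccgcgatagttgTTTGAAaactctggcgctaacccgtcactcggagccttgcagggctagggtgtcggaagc
Mki67 (chr7:135716350-135716499, minus strand): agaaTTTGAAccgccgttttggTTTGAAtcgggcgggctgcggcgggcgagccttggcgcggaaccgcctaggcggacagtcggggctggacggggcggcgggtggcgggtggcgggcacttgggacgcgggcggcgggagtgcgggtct
Top2a (chr11:99024160-99024309, minus strand): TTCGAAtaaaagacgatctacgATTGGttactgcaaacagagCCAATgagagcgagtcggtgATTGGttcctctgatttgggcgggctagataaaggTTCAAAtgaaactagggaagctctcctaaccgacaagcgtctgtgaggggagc
Ube2c (chr2:164769809-164769958, plus strand): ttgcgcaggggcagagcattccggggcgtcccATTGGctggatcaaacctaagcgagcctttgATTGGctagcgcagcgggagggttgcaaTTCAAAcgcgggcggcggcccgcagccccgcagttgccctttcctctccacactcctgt

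The same stretch of the 4 genes with a window that did not pass the test is shown for comparison. Kif20b holds a pair of adjacent CHR matches just after the start site, Cenpm a CHR beside an E2F-type match, and the Cenpp and Ncapd3 stretches hold none of the motifs. Ncapd3 has 2 windows and was counted among the genes with a CHR through the window that is not shown.
Kif20b (chr19:34922238-34922387, plus strand): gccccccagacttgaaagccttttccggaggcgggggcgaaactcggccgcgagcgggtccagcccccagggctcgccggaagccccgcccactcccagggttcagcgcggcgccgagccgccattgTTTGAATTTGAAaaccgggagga
Cenpm (chr15:82244307-82244456, minus strand): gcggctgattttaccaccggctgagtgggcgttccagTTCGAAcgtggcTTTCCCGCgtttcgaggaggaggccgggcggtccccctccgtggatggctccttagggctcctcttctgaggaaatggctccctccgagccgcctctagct
Cenpp (chr13:49652702-49652851, minus strand): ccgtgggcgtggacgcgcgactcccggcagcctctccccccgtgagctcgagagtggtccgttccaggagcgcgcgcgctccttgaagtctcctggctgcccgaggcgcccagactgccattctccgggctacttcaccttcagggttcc
Ncapd3 (chr9:27030045-27030194, plus strand): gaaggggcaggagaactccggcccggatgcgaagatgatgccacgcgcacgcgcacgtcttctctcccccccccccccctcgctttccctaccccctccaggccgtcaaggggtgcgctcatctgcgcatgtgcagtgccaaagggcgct

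**Figure D3:**
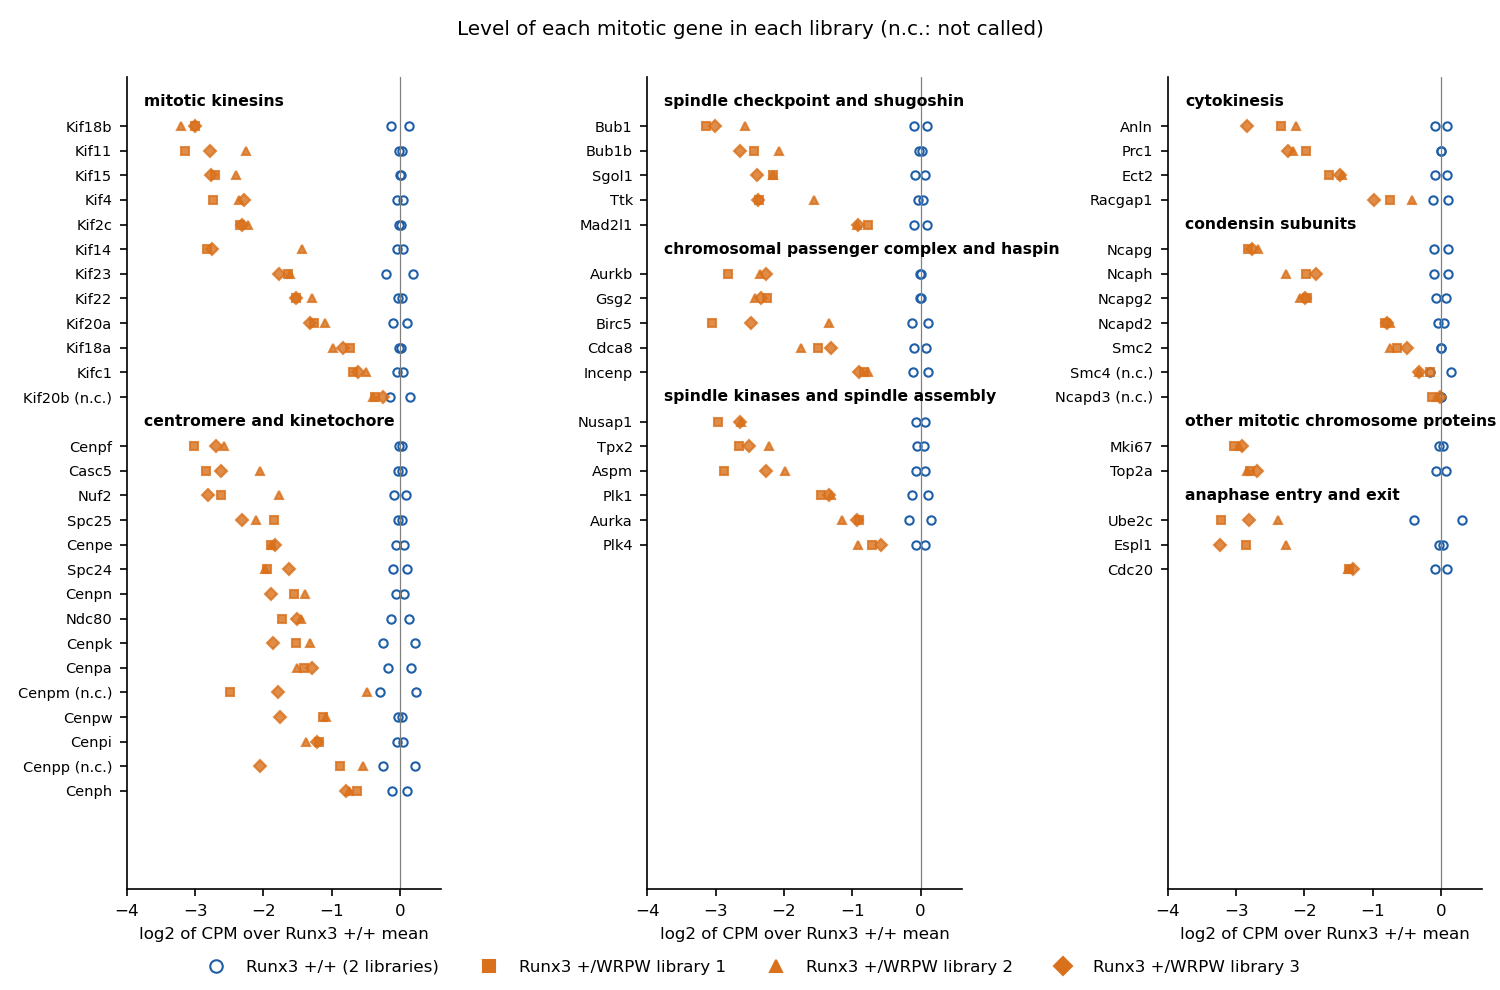
Each row is 1 gene and the x axis is the log2 of its CPM over the mean of the 2 Runx3 +/+ libraries (open circles), with a filled symbol for each Runx3 +/WRPW library; n.c. marks the 5 genes that were not called. The filled symbols lie left of the open ones in all 59 rows, farthest for Kif18b, Mki67 and Bub1 and least for Ncapd3, and library 2 (triangles) lies to the right of libraries 1 and 3 for Kif14, Nuf2, Birc5 and Cenpm.

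Of the 12 mitotic kinesins, which are microtubule motors, 11 fell and 1 did not pass, with a median log2 fold change of -1.95 and a range of -3.05 to -0.33. Kif18b (chromosome 11, 102905518 to 102925134, RefSeq gene bounds on GRCm38.p6, as for all positions of genes given here), a plus-end motor that destabilises astral microtubules, was at 11.4 and 13.7 against 1.58, 1.37 and 1.56 CPM. Both Runx3 +/+ libraries were far above the other 3, which lay close together (log2 fold change -3.05 ± 0.18 (SE), adjusted p = 0.000927). Kif11 (log2 fold change -2.71), the motor that pushes the spindle poles apart, and Kif15 (-2.63), which can back it up, both fell, at 39.2 and 40.4 against 4.5, 8.34 and 5.8 CPM and 31.5 and 31.2 against 4.8, 5.92 and 4.6 CPM. The chromokinesin Kif4 (-2.46) and the depolymerase Kif2c (-2.30) also fell by more than 4-fold. Kif22 (-1.45), a chromosome arm motor, and Kif23 (-1.68) and Kif20a (-1.23), motors of the central spindle, fell by 2-fold to 4-fold. Kif14 (-2.23), a motor of cytokinesis, was at 12.1 and 12.8 against 1.76, 4.61 and 1.84 CPM, with Runx3 +/WRPW library 2 above the other libraries of its genotype.

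The smallest differences among kinesins were in Kif18a (-0.84), which restrains chromosome movement, Kifc1 (-0.60), the minus-end motor that bundles microtubules, and Kif20b. Kifc1 was at 14.1 and 14.9 against 9.03, 10.2 and 9.43 CPM, without overlap. Kif20b (chromosome 19, 34922335 to 34975750), a motor of late cytokinesis, was at 45.8 and 37.4 against 32.4, 31.6 and 34.9 CPM and did not pass (log2 fold change -0.33 ± 0.11 (SE), adjusted p = 0.0931); its higher Runx3 +/+ library stood apart from a lower one close to the other genotype. Of the 12, 6 were called without Runx3 +/+ library 1 and 6 without Runx3 +/+ library 2. Kif14, Kif18a, Kif20a and Kifc1 lost their call in both fits and without Runx3 +/WRPW library 3, and all but Kif18a also without Runx3 +/WRPW library 1, with highest adjusted p of 0.225, 0.169, 0.221 and 0.138 over the 5 fits that left out 1 library, and Kif2c in the 2 Runx3 +/+ fits only (0.0868).

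Of the 15 centromere and kinetochore genes, 13 fell and 2 did not pass, with a median of -1.56 and a range of -2.77 to -0.72. Cenpf (chromosome 1, 189640606 to 189688107), a large protein of the outer kinetochore corona, was at 38 and 39.1 against 4.78, 6.48 and 5.93 CPM, the largest fall of this group (log2 fold change -2.77 ± 0.14 (SE), adjusted p = 0.000736). Casc5 (-2.50), known as Knl1, the scaffold that recruits checkpoint kinases, was at 18.9 and 19.8 against 2.7, 4.67 and 3.13 CPM. Cenpe (-1.86), itself a kinesin that carries chromosomes to the spindle equator, was at 27.2 and 29.5 against 7.66, 7.72 and 8 CPM, with little spread in either genotype. Cenpa (-1.40), the histone H3 variant that marks centromeres, was at 33.8 and 42.5 against 14.3, 13.4 and 15.6 CPM. All 4 of these genes were clearly separated between the genotypes.

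Subunits of the NDC80 complex, the microtubule coupler of the outer kinetochore, all fell. Log2 fold changes were -2.35 for Nuf2, -2.06 for Spc25, -1.84 for Spc24 and -1.56 for Ndc80. Per length of the longest RefSeq-linked transcript, levels in Runx3 +/+ and Runx3 +/WRPW were 9.42 ± 1.23 and 3.21 ± 0.319 CPM per kb for Ndc80 (mean ± SD, n = 2 and 3). On the same scale they were 6.63 ± 0.676 and 1.86 ± 0.26 CPM per kb for Spc24, 6.16 ± 0.158 and 1.46 ± 0.245 CPM per kb for Spc25 and 4.96 ± 0.418 and 0.988 ± 0.403 CPM per kb for Nuf2. Ndc80 thus had the highest and Nuf2 the lowest mean level in both genotypes, while those of Spc24 and Spc25 in Runx3 +/+ differed by less than the spread between libraries.

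Of the inner kinetochore genes of the set, which belong to the constitutive centromere network, 5 fell. Their log2 fold changes were -1.60 for Cenpn, -1.55 for Cenpk, -1.28 for Cenpw, -1.25 for Cenpi and -0.72 for Cenph, which was at 6.96 and 8.11 against 4.85, 4.48 and 4.37 CPM (adjusted p = 0.0396). Cenpm (chromosome 15, 82233762 to 82244773) did not pass, at 4.44 and 6.39 against 0.96, 3.86 and 1.56 CPM (log2 fold change -1.38 ± 0.58 (SE), adjusted p = 0.176), and Runx3 +/WRPW library 2 was close to the lower Runx3 +/+ library. Without that library it was called lower, at a log2 fold change of -2.13 and an adjusted p = 0.0267. Cenpp (chromosome 13, 49464025 to 49652950) did not pass either, at 2.43 and 1.76 against 1.14, 1.43 and 0.506 CPM (log2 fold change -1.03 ± 0.53 (SE), adjusted p = 0.255), and had the lowest mean CPM of the set in both genotypes. Per transcript length, Kif14 was the lowest of the set in both. Calls numbered 5 of 15 without Runx3 +/+ library 1 and 4 without Runx3 +/+ library 2, with Cenpf, Cenpe, Cenpa and Ndc80 called in each. Nuf2, Spc24 and Spc25 lost theirs in both fits (highest adjusted p 0.128, 0.115 and 0.081), as did Cenpn, Cenpk, Cenpw, Cenpi and Cenph (0.116 to 0.424), and Casc5 without Runx3 +/+ library 2 (0.0568). Cenpk, Cenpw and Cenph also lost theirs without Runx3 +/WRPW library 1 or 3, and Cenph without any 1 library.

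All 5 genes of the spindle checkpoint and of cohesion protection fell, with a median of -2.23. Bub1 (chromosome 2, 127800197 to 127831859), the kinetochore kinase that starts checkpoint signalling, was at 16.2 and 18.5 against 1.97, 2.93 and 2.16 CPM (log2 fold change -2.91 ± 0.20 (SE), adjusted p = 0.00132). Bub1b (-2.38), which encodes the anaphase inhibitor BubR1, was at 25.3 and 26 against 4.73, 6.1 and 4.09 CPM. Both kept their call in all 5 fits that left out 1 library. Sgol1 (-2.23), the shugoshin that shields centromeric cohesin, and Ttk (-2.07), the Mps1 kinase upstream of the checkpoint, were low, with Runx3 +/+ levels of 5.4 to 7.59 CPM, and lost their call without either Runx3 +/+ library (highest adjusted p 0.111 and 0.206), Ttk also without Runx3 +/WRPW library 1 or 3. Mad2l1 (chromosome 6, 66535221 to 66541107), the Mad2 subunit of the inhibitor, fell least, at 25.7 and 22.6 against 14.1, 12.7 and 12.8 CPM (log2 fold change -0.86 ± 0.11 (SE), adjusted p = 0.00699).

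The chromosomal passenger complex corrects attachments through its kinase Aurora B, and haspin, encoded by Gsg2, marks the histone that docks it at centromeres. All 5 genes fell, with a median of -2.17. Aurkb (chromosome 11, 69045624 to 69051664), the kinase itself, was at 12.8 and 12.7 against 1.81, 2.49 and 2.67 CPM (log2 fold change -2.47 ± 0.21 (SE), adjusted p = 0.00205). Birc5, which encodes survivin, was at 19.4 and 22.9 against 2.56, 8.34 and 3.77 CPM (-2.17), and Cdca8, which encodes borealin, at 17.2 and 19.5 against 6.47, 5.48 and 7.41 CPM (-1.51). Runx3 +/WRPW library 2 was again the highest of its genotype for Birc5. Incenp (chromosome 19, 9872295 to 9899489), the scaffold, was at 64.5 and 75.1 against 39.2, 41 and 37.5 CPM and fell least (log2 fold change -0.83 ± 0.09 (SE), adjusted p = 0.00363), yet it kept its call in each fit without 1 library. Aurkb and Cdca8 lost theirs without Runx3 +/+ library 2 (adjusted p = 0.052 and adjusted p = 0.0657), and Birc5 in every fit but the one without Runx3 +/WRPW library 2 (highest adjusted p 0.256). Per transcript length, Incenp was the highest of the 4 complex subunits in both genotypes, at 21.6 ± 2.32 and 12.1 ± 0.532 CPM per kb, with Aurkb at 6.54 ± 0.0312 and 1.19 ± 0.234 CPM per kb.

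Gsg2 (chromosome 11, 73135484 to 73138294) was at 86.3 and 86.4 against 18.1, 16.1 and 17.1 CPM (log2 fold change -2.33 ± 0.07 (SE), adjusted p = 0.000123), the third highest of the set per transcript length in Runx3 +/+ libraries. In the GENCODE annotation it lies wholly inside the body of Itgae, the gene of the integrin CD103, on the opposite strand and without shared exon bases. Itgae was itself lower, at 725 and 874 against 64.7, 51.2 and 55.8 CPM (log2 fold change -3.80). The Gsg2 count was 11.9% and 9.88% of the Itgae count in Runx3 +/+ and 28% to 31.4% in Runx3 +/WRPW. Whether the counting used strand is not given in the sources used here, so reads of Gsg2 and unspliced reads of Itgae cannot be told apart.

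The 6 genes of spindle kinases and spindle assembly all fell, with a median of -1.87. Nusap1 (chromosome 2, 119618298 to 119650165), which anchors microtubules to chromosomes, was at 26.8 and 29.5 against 3.59, 4.55 and 4.51 CPM (log2 fold change -2.75 ± 0.14 (SE), adjusted p = 0.000736). Tpx2 (-2.47), the activator of Aurora A, was at 30.4 and 33 against 5.03, 6.79 and 5.57 CPM, and Aspm (-2.36), which focuses spindle poles, at 20.3 and 22.1 against 2.88, 5.36 and 4.42 CPM. Each was lower in every Runx3 +/WRPW library by a wide margin. Among the kinases, Plk1 (-1.37), which acts from mitotic entry to cytokinesis, was at 13.1 and 15.3 against 5.17, 5.73 and 5.61 CPM, and Aurka (-0.98), Aurora A, at 8.87 and 7.11 against 4.3, 3.61 and 4.19 CPM. Plk4 (chromosome 3, 40799951 to 40816883), the kinase that starts centriole duplication, fell least, at 22.4 and 20.5 against 13, 11.3 and 14.4 CPM (log2 fold change -0.73 ± 0.13 (SE), adjusted p = 0.0195). Aurka and Plk4 lost their calls without either Runx3 +/+ library (highest adjusted p 0.217 and 0.142), both also without Runx3 +/WRPW library 1 and Aurka without Runx3 +/WRPW library 3, and Plk1 and Aspm without Runx3 +/+ library 2 (0.0565 and 0.0681).

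All 4 cytokinesis genes fell, with a median of -1.82. Anln (chromosome 9, 22331214 to 22389211), the anillin scaffold of the contractile ring, was at 10.2 and 11.6 against 2.15, 2.49 and 1.52 CPM (log2 fold change -2.41 ± 0.24 (SE), adjusted p = 0.00331). Prc1 (-2.11), which bundles central spindle microtubules, was at 26.6 and 26.9 against 6.81, 5.98 and 5.66 CPM, and Ect2 (-1.53), the exchange factor that activates RhoA, at 14.7 and 16.7 against 5.03, 5.73 and 5.61 CPM. The lowest Runx3 +/+ value exceeded the highest Runx3 +/WRPW value by over 2-fold in each of the 3. Racgap1 (chromosome 15, 99620496 to 99651656), which pairs with Kif23 in centralspindlin, was at 80.2 and 93.9 against 51.9, 64.5 and 44.1 CPM (log2 fold change -0.71 ± 0.16 (SE), adjusted p = 0.0388). Per transcript length, Racgap1 was at 28.5 ± 3.17 and 17.5 ± 3.38 CPM per kb and its partner Kif23 at 16.8 ± 3.24 and 5.26 ± 0.302 CPM per kb. Racgap1 lost its call without any library but Runx3 +/WRPW library 2 (highest adjusted p 0.307), and Anln without Runx3 +/+ library 2 (0.082).

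Condensin subunits split widely: 5 of 7 fell and 2 did not pass, with a median of -0.79 and a range of -2.76 to -0.07. Condensin I and II share the ATPases Smc2 and Smc4 and differ in their other subunits. Of condensin I, Ncapg (chromosome 5, 45669891 to 45700547) was at 14.9 and 17.1 against 2.26, 2.49 and 2.35 CPM (log2 fold change -2.76 ± 0.15 (SE), adjusted p = 0.000736), Ncaph at 27.4 and 23.7 against 6.49, 5.29 and 7.18 CPM (-2.01) and Ncapd2 at 120.5 and 127 against 70.2, 74 and 71.2 CPM (-0.79). All 3 were called in each fit that left out 1 library. Of condensin II, Ncapg2 was at 39.9 and 36.3 against 9.76, 9.15 and 9.61 CPM (-2.0), while Ncapd3 (chromosome 9, 27030165 to 27096522) was at 165 and 165 against 150.3, 159 and 163 CPM and did not pass (log2 fold change -0.07 ± 0.06 (SE), adjusted p = 0.541), with nearly equal libraries. Their partner Ncaph2, from the comparison lists, was at 142 and 136 against 132, 134 and 126 CPM and did not pass either (log2 fold change -0.09 ± 0.06 (SE), adjusted p = 0.385).

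The shared ATPase Smc2 was at 111 and 112 against 71.4, 66.6 and 78.5 CPM (log2 fold change -0.63 ± 0.08 (SE), adjusted p = 0.00701), a call lost without either Runx3 +/+ library (highest adjusted p 0.119). Smc4 (chromosome 3, 69004738 to 69034623) was the most abundant gene of the set, at 1004 and 815 against 814, 729 and 728 CPM, and did not pass (log2 fold change -0.26 ± 0.11 (SE), adjusted p = 0.163). Per transcript length Smc4 stood at 211 ± 30.9 and 175 ± 11.5 CPM per kb and Smc2 at 20.6 ± 0.0405 and 13.4 ± 1.11 CPM per kb. On that scale Ncapg was at 4.32 ± 0.422 and 0.639 ± 0.0312 CPM per kb and Ncapd2 at 26.7 ± 1.01 and 15.5 ± 0.418 CPM per kb, and Ncapd3 at 29.95 ± 0.0491 and 28.6 ± 1.19 CPM per kb. Subunits of 1 complex thus had unequal levels in both genotypes, and the transcripts of lowest level per length among the 7, Ncapg, Ncapg2 and Ncaph, had the largest falls.

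**Figure D4:**
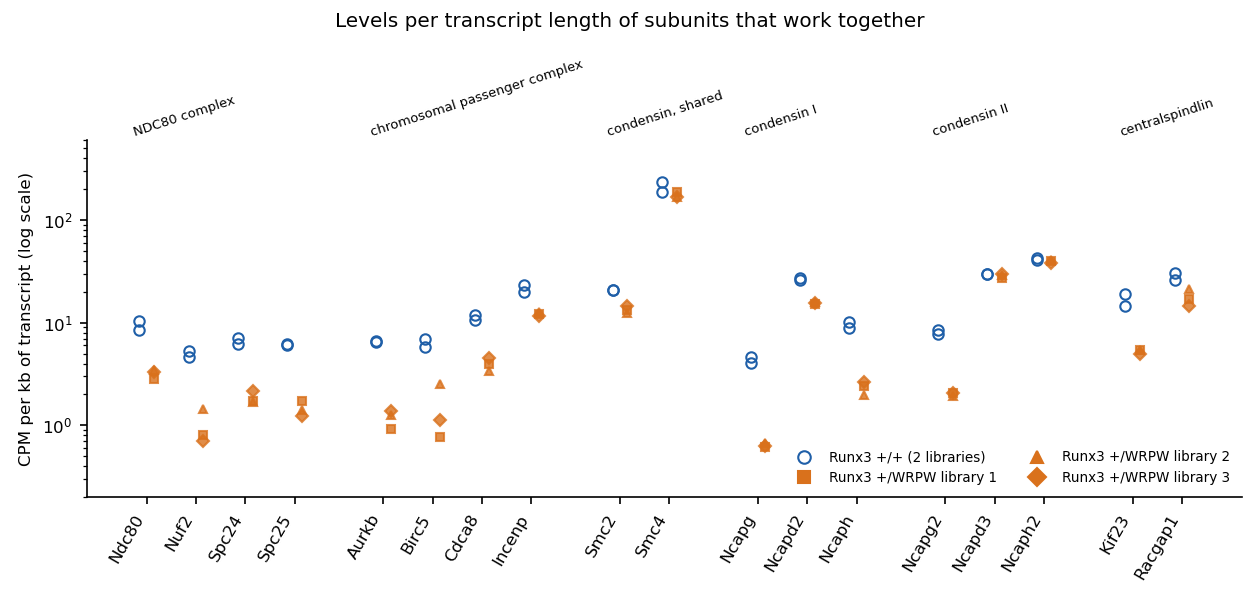
CPM per kb of transcript on a log scale for subunits that work together, with open circles for the 2 Runx3 +/+ libraries and filled symbols for Runx3 +/WRPW libraries 1, 2 and 3. The genotypes separate for NDC80, passenger complex and centralspindlin (Kif23 and Racgap1) transcripts and for Ncapg, Ncaph, Ncapg2, Ncapd2 and Smc2. They lie close for Smc4 and nearly level for Ncapd3 and Ncaph2.

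Mki67 (chromosome 7, 135689784 to 135716450), which encodes the Ki-67 coat of mitotic chromosomes and is a standard label of cycling cells, was at 244 and 254 against 30.4, 32.1 and 33 CPM (log2 fold change -2.97 ± 0.06 (SE), adjusted p = 5.19e-05). Top2a (chromosome 11, 98992947 to 99024199), the topoisomerase that untangles sister chromatids, was at 222 and 245 against 33.6, 32.6 and 36.1 CPM (log2 fold change -2.78 ± 0.07 (SE), adjusted p = 7.08e-05). Both had SEs under 0.1, among the smallest of the set, and kept their calls in each fit without 1 library. Of the 3 genes of anaphase entry and exit, which act with the anaphase-promoting complex, all fell, with a median of -2.75. Ube2c (chromosome 2, 164769929 to 164772902), its ubiquitin-conjugating enzyme, was at 8.64 and 14.1 against 1.21, 2.18 and 1.61 CPM (log2 fold change -2.80 ± 0.32 (SE), adjusted p = 0.00516) with a wide gap between the Runx3 +/+ libraries, and lost its call without Runx3 +/+ library 2 (adjusted p = 0.112). Espl1 (-2.75), the separase that cuts cohesin, was at 31.7 and 30.6 against 4.32, 6.48 and 3.31 CPM. Cdc20 (chromosome 4, 118432901 to 118437343), the activator that the checkpoint holds back, was at 22 and 24.9 against 9.17, 9.15 and 9.57 CPM (log2 fold change -1.33 ± 0.11 (SE), adjusted p = 0.0017), with the 3 Runx3 +/WRPW libraries almost equal.

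Over the whole set, the summed level of the 59 genes was 3036 and 2936 CPM in the Runx3 +/+ libraries and 1489 to 1550 CPM in the Runx3 +/WRPW libraries. Smc4 alone made up a large share of this sum. Without it the sums were 2032 and 2120 against 736, 787 and 761 CPM. In each group of genes the Runx3 +/+ sums exceeded every Runx3 +/WRPW sum. Of the 59 genes, 27 were called lower in all 11 alternative analyses, among them Mki67, Top2a, Kif11, Kif15, Kif18b, Bub1, Bub1b, Cenpe, Cenpf, Tpx2, Nusap1 and Ncapg. How many of all genes tested were called lower in all 11 was not counted, so the 27 has no background beside it.

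Other genes of chromosome segregation, listed by role with earlier results of these data known, gave the following calls. The assignment of genes to the set or to these lists was thus not blind to the values. Of 25 further centromere and kinetochore genes, 11 fell and 0 rose, with a median of -0.32. Kntc1 (-1.66), the Rod subunit that brings dynein to kinetochores, was at 32.6 and 30.1 against 9.05, 11.8 and 8.97 CPM, and Ska3 (-2.21), part of a microtubule coupler, at 5.32 and 6.79 against 1.21, 1.74 and 1.01 CPM. The log2 fold change was -1.19 for Spdl1, a dynein adaptor. Of further genes of the constitutive centromere network in this list, singled out after their values were seen, Cenpc1 (-0.45) and Cenpl (-0.69) fell, and others were not called. These were Cenpo (0.10, adjusted p = 0.513), Cenpq (-0.15, adjusted p = 0.346), Cenpt (-0.07, adjusted p = 0.669), Cenpu (-0.03, adjusted p = 0.941), Stra13 (0.11, adjusted p = 0.535) and Itgb3bp (0.67, adjusted p = 0.433). Cenpc1 lost its call when any 1 library but Runx3 +/WRPW library 2 was left out (highest adjusted p 0.221), and Cenpl when any 1 library was (0.188). Of 5 further checkpoint genes, 1 fell, Sgol2a (-1.41). Of 17 genes of the anaphase-promoting complex and its regulators, 3 fell: Fbxo5 (-0.92), which encodes its inhibitor Emi1, Anapc15 (-0.50) and Anapc11 (-0.30). Of 17 cohesin and related genes, 3 fell: Esco2 (-2.78) and Cdca5 (-2.05), which establish and hold cohesion after replication, and the ring subunit Smc1a (-0.43).

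Other kinesins carry cargo in interphase. Of 19 tested transport kinesins and light chains, 0 fell and 1 rose (Klc2, 29.6 and 27.3 against 37.3, 39.4 and 36.4 CPM, log2 fold change 0.41 ± 0.08 (SE), adjusted p = 0.0258), with a median of 0.17. DESeq2 called 2 of them lower, in a fit where it called 10.5% of all genes lower, and the call of Klc2 was lost in all 5 fits without 1 library. Of 22 centrosome and augmin genes, 4 fell: Nek2 (-2.79), a kinase of centrosome separation, Cep55 (-2.40), a protein of abscission, Stil (-2.12), a centriole assembly factor, and Tubg1 (-0.38). Cep55 was at 14.3 and 16.1 against 2.74, 3.18 and 2.71 CPM. Of 11 tubulins, 5 fell, with Tubb3 (-2.27), Tubb2b (-1.89), Tubb5 (-0.72) and Tuba1b (-0.59) the 4 of smallest p; the abundant Tubb5 was at 1293 and 1584 against 928, 793 and 893 CPM. Reads of near-identical tubulin genes may be split between copies, so single tubulins are uncertain.

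Of 16 regulators known to bind late cell cycle promoters, 2 fell and 1 rose, with a median of -0.07. Foxm1 (-1.89), the forkhead factor recruited by MuvB, was at 35 and 36.8 against 9.01, 9.59 and 10.6 CPM (adjusted p = 0.000819), and Mybl2 (-1.78), which encodes B-Myb, at 11.3 and 15.5 against 3.61, 3.92 and 4.19 CPM (adjusted p = 0.00352). Tfdp2, a partner of E2F factors, rose to 43.3, 46 and 45 CPM from 34.8 and 32.4 CPM (0.41). Over the 8 lists together 29 genes fell and 2 rose of 132 tested, where 7.33% and 6.24% of all genes did. Against these 31 calls, the lists held 11 and 4 when Runx3 +/+ library 1 or 2 was left out, and 15, 25 and 18 when Runx3 +/WRPW library 1, 2 or 3 was. Of the called genes named in these lists, Kntc1, Cep55 and Foxm1 kept their calls in all 5 of those fits. The others lost theirs in at least 1 of them, all of them without Runx3 +/+ library 2; the adjusted p without Runx3 +/+ library 2 was above 0.05 for Mybl2, Nek2 and Cdca5 (0.0638, 0.0868 and 0.0919).

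**Figure D5:**
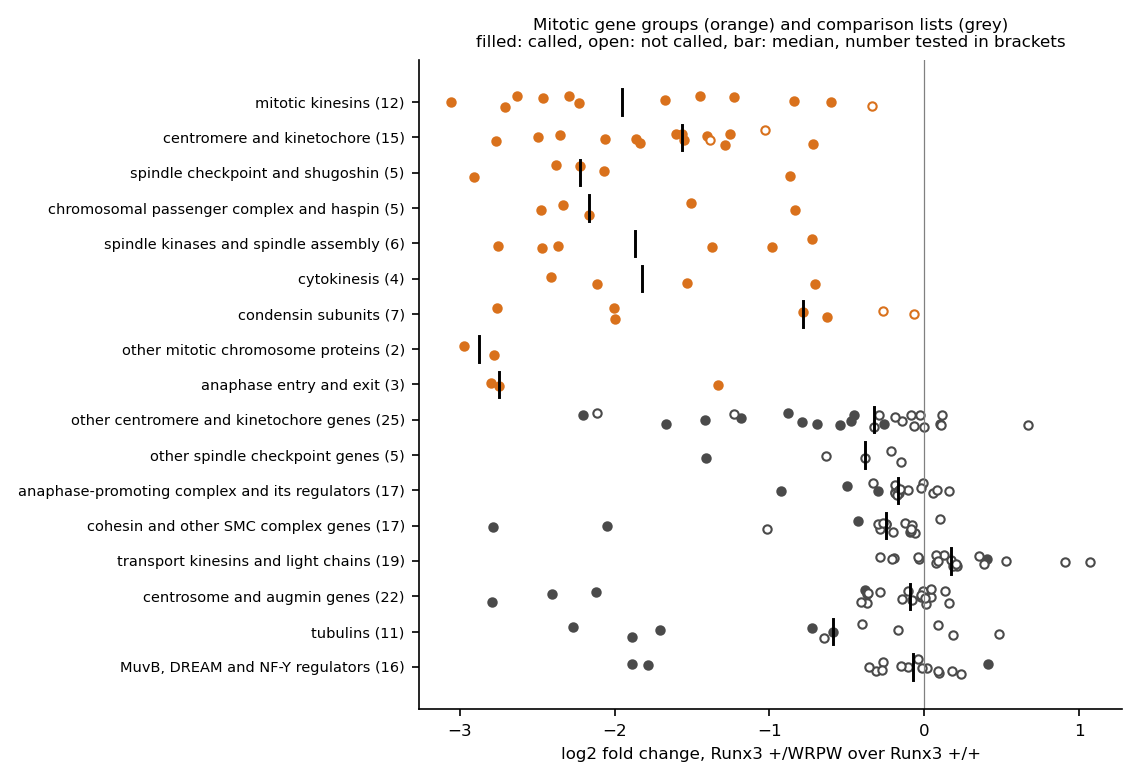
Log2 fold change of Runx3 +/WRPW over Runx3 +/+ for each tested gene, by group of mitotic genes (orange) and by comparison list (grey), filled where called, with a bar at the median and the number tested in brackets. Orange medians reach no higher than -0.79 (condensin), while those of the grey lists lie between -0.59 and 0.17.

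Some genes of the set share exon bases with a neighbour on the opposite strand. At least 10% of the exon bases are shared for Kif20a with Cdc23 (29.3%), Ube2c with Tnnc2 (22.8%), Kif4 with Pdzd11 (15.1%), Ncapg with Lcorl (13.4%), Cenpp with Ippk (12.3%) and Prc1 with Rccd1 (11.1%). Cdc23 was at 111 and 112 against 105, 101 and 104 CPM, Rccd1 at 30.7 and 29 against 35.8, 35.2 and 30.8 CPM and Tnnc2 at no more than 0.28 CPM. None of Cdc23, Pdzd11, Lcorl, Ippk and Rccd1 passed the test (adjusted p of 0.237 to 0.769), and Tnnc2 was below the filter. The share of the counts of Kif20a and Cenpp that belongs to these neighbours was not tested.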

How the data were processed

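Bulk RNA-seq counts of sorted mature CD8 SP thymocytes were analysed, from 2 Runx3 +/+ and 3 Runx3 +/WRPW libraries grouped by the genotype label. Each deposited table holds unnormalized read counts by gene symbol; per the submitters' processing notes the authors' tools were HISAT2 2.2.1 (mm10), featureCounts 2.0.8, cutadapt 4.0 and edgeR 3.36.0. The column header of Runx3 +/+ library 2 bears another number than its label, and that of Runx3 +/WRPW library 2 is general; sample records were followed. The sources used here do not give the settings, annotation or strand. Libraries of 1 genotype differed beyond sampling noise (chi-square per gene 14.2 or more).

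The whole table was fitted by edgeR's quasi-likelihood functions glmQLFit and glmQLFTest (edgeR 4.0.16, R 4.3.3), after filterByExpr at a minimum count of 10 and TMM scaling (factors 0.981 to 1.034; Benjamini-Hochberg adjustment over 13666 genes, calls at an adjusted p under 0.05). Levels are TMM-scaled CPM; the SE is the absolute log2 fold change over the square root of F. The fit was also run on simulated counts. These had a single fixed dispersion and no outlying library, so that run does not cover the spread of these libraries. Coordinates and promoters are from RefSeq (GRCm38.p6, the assembly mm10 names), and lengths and overlaps from GENCODE M21; all 59 genes matched. Named genes are all members, with values by library for the largest and smallest change in each group and for each gene not called, and up to 4 called genes of smallest p per comparison list; further genes given by library (such as Kif11 and Tpx2) and the overlapping neighbours were chosen after their values were seen. Some results that these rules would name are not reported here. The members and lists were chosen with earlier results of these data known. Alternatives were RLE factors, DESeq2 1.42.0, limma-voom (limma 3.58.1), no low-count filter, a stricter filter (at least 1 CPM throughout 1 genotype), the replicate number as a block, and each library left out. A floor of 3 counts is 0.0686 to 0.191 CPM per library, for counting error only.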

Additional observations from a re-analysis of the deposited data

How the results depend on the processing

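Direction held for all 59 mitotic genes in all 11 alternatives, and their median log2 fold change stayed between -1.96 and -1.83. The alternatives reuse the same libraries, and how many of all genes kept their direction was not counted. The number called lower was 54 with RLE factors, DESeq2 or the stricter filter (7.33%, 10.5% and 9.21% of all genes called lower), 55 with limma-voom (7.93%), 49 with no low-count filter (2.23%), and 27 to 54 when 1 library was left out (34 and 27 without Runx3 +/+ libraries 1 and 2); none was called higher in any. The total of called genes, 1855, was 2705 with DESeq2, 1079 with no low-count filter, where the median of all 28583 genes tested was 0.70, and 277 to 1431 when 1 library was left out. Calls in the comparison lists, 31 in all, were 4 to 25 when 1 library was left out. The fits without a Runx3 +/+ library assume that the lone one varies like the other genotype, and test 18369 and 18169 genes. With the replicate number as a block, 41 mitotic genes and 12 genes of the comparison lists were called. That fit called 754 genes in all, with 3.12% of all genes called lower. The numbers are shared by only 2 pairs, whose deviations from the genotype means correlated at -0.0492 and 0.00244. Deviations of 2 libraries from their mean mirror each other, so these correlations cannot decide whether libraries were paired. The gene of lowest mean CPM was Cenpp, with 11 counts in Runx3 +/WRPW library 3.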
